A study of Oryctolagus cuniculus with 12 samples.

Results

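The genes described here encode signalling kinases and protein phosphatases. They were chosen by name alone, as rabbit symbols that start with PRKA, PRKC, PRKG, PPP followed by a digit, PHK, CAMK, MYLK, ROCK, MAPK, MAP2K or PDE followed by a digit. Symbols were given to probes whose RefSeq accession, as printed in the scanner files, is listed by RefSeq for the assembly mOryCun1.1 of the rabbit. The rule found 35 genes with 105 probes, out of 1264 named genes with 3368 probes and 43603 probes on the array in all. Of these genes, 18 encode subunits or regulators of protein phosphatases, 5 protein kinase C isoforms, 4 subunits of phosphorylase kinase, and 2 each calcium/calmodulin-dependent kinase II and MAP kinase kinases. The remaining genes encode the cyclic AMP-dependent kinase (PRKACA), the cyclic GMP-dependent kinase (PRKG1), ROCK1, a kinase of contraction, and the skeletal muscle myosin light chain kinase (MYLK2). For the symbols starting with MAPK and with PDE, 0 genes had a probe that was matched, so phosphodiesterases and MAP kinases were not analysed here.

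Kinases transfer phosphate to proteins and phosphatases remove it, and in arterial smooth muscle their balance on the myosin light chain sets contraction. Calcium bound to calmodulin activates myosin light chain kinase, ROCK1 inhibits the myosin phosphatase, and protein kinase C acts on both arms, whereas the kinases activated by cyclic AMP and cyclic GMP favour relaxation. Calcineurin, a phosphatase activated by calcium, and the MAP kinase kinases carry signals to the nucleus that are known for their part in the growth of smooth muscle cells.

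Gene expression was measured in rings of thoracic aorta, 4 mm long and taken upstream of the coarctation, from 12 male New Zealand white rabbits aged 32 weeks, with 1 array per rabbit. In the CoA group (4 rabbits), a permanent silk suture tied at an age of about 10 weeks imposed a gradient of 20 mmHg and served as a model of untreated coarctation. In the Corrected group (4 rabbits), the same gradient was imposed with a Vicryl suture that the body absorbs, after which the aorta widens again with some narrowing left. The Control group (4 rabbits) had no operation, and there was no sham group, so effects of surgery and of raised pressure cannot be told apart in comparisons with Control. The array of Corrected replicate 3 was set aside by the submitters for its distribution of intensities and was left out here, which leaves 3 Corrected arrays. The questions were which genes differ under CoA and which still differ after correction.

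The CoA arrays shared 1 slide of their own, and for them an effect of the slide and of CoA cannot be told apart. Corrected replicates 1 and 4 were on a slide without Control arrays, so for them slide and correction cannot be told apart either. Corrected replicate 2 shared a slide with Control replicates 1, 2 and 4. Control replicate 3 was the only array on its slide and was scanned on another day than all other arrays. Between 69.7% and 77.7% of the spots were well above background on the Control arrays and between 55.8% and 69.7% on the CoA arrays, and the precision of every value is limited by the number of arrays. The smooth muscle genes ACTA2, MYH11 and CALD1 were detected on all 12 arrays. On CoA replicate 2, the summed level of 8 measured skeletal muscle markers was 15.4 on the log2 scale, against 10.7 to 11.5 on the other CoA arrays. It was 8.91 to 10.4 on the Control arrays and 11.9 to 12.1 on the Corrected arrays. TNNC2 (15.07) and CKM (13.28) carried the sum on CoA replicate 2, whereas MYH1 (4.45), RYR1 (4.52) and TNNI2 (3.50) were not raised there. For 5 cardiac muscle markers, the summed log2 level was 16.95 on CoA replicate 2 and 13.4 to 13.7 on the other CoA arrays. The larger shifts of signalling genes without this array are given below. The summed log2 levels of 4 adipocyte and 2 erythroid markers were 12.2 to 13.8 and 18.3 to 18.9 on the Control arrays. Both were lower on every CoA array (8.95 to 11.999 and 15.0 to 17.9). Of the single adipocyte markers, PPARG (-3.17) was lower without overlap, LPL (-1.49) and ADIPOQ (-2.99) were lower with overlap, and LEP was higher (0.17).

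Of the 35 signalling genes, 27 were tested because their brightest probe was detected on 8 or more arrays out of 12, and 20 of them were detected on all 12. The other 8 were not tested. By the brightest probe of each, MYLK2 was detected on 0 arrays, PPP2R5D, PPP3R2, PRKACA and PRKCE on 1 array each, PRKCA on 2, PPP4C on 4 and PPP1R3A on 7. Signals below are log2 processed signals after quantile normalization, in the order of the replicates (Corrected replicates 1, 2 and 4), and a log2 difference of 1 is a 2-fold change. Levels of different genes are not compared because each probe has its own brightness.

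In CoA vs Control, 0 of the 27 genes differed by more than 2-fold with an unadjusted p under 0.05 in limma, a criterion met by 8.81% of all probes tested and by 10.8% of the 956 named genes tested. CAMK2D, the delta isoform of calcium/calmodulin-dependent kinase II, and PPP2R2C, a regulatory subunit of protein phosphatase 2A, had an unadjusted p under 0.05 and were higher in CoA. These 2 genes are 7.41% of those tested, where the share was 14.2% of all probes (7.55% higher in CoA) and 16.6% of the named genes. The groups did not overlap for 5 genes (18.5%), against 10.2% of all probes. In CoA, PHKA1, PPP2R2B, PPP2R2C and PPP3CB lay above every Control array (14.8% of the 27, against 6.85% of all probes), and PHKG1 lay below (3.7% against 3.38%). The median log2 fold change over the 27 genes was 0.13, with 16 genes above 0 and 11 below, and 0.08 over the named genes. After Benjamini-Hochberg adjustment over the 27283 probes tested, limma gave 0 signalling genes under 0.05, with a smallest adjusted p of 0.302. With array weights in limma, 14 signalling genes and 11130 probes in all were under 0.05, and 0 of either with Control replicates 3 and 4, which carried the highest weights, taken as 1 sample.

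For Corrected vs Control, 0 of the 27 genes met the 2-fold criterion in limma and 0 had an unadjusted p under 0.05, against 5.4% and 8.37% of all probes and 7.01% and 9.41% of the named genes. PRKCB, protein kinase C beta, was the only gene whose groups did not overlap, where 8.86% of all probes did not and 3.59% were lower in Corrected without overlap. The median log2 fold change was 0.10, equal to that of the named genes (0.10), with 15 genes above 0 and 12 below. The same 4 Control arrays enter both comparisons with Control, which are therefore not independent of each other. Between CoA and Corrected, 1 gene of 27 (3.7%) met the criterion, against 2.76% of all probes and 3.24% of the named genes. An unadjusted p under 0.05 was likewise found for 1 gene, against 4.31% and 4.08%, and groups without overlap for 1 gene, against 4.2% of all probes. The smallest adjusted p by limma among the 27 genes reached 0.643 in Corrected vs Control and 1.00 in CoA vs Corrected, with 0 genes under 0.05 in each.

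**Figure D1:**
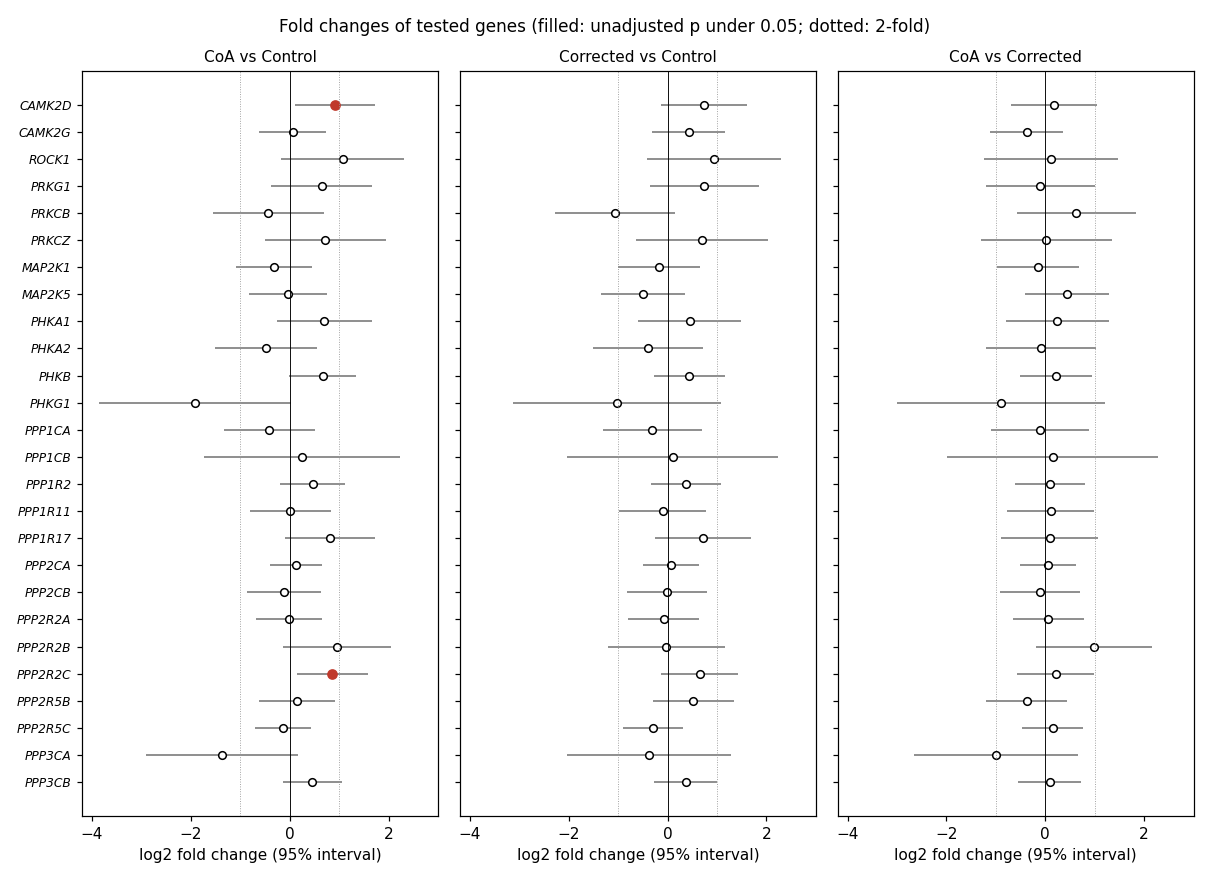
Log2 fold change (x axis) of tested signalling genes (y axis) in the 3 comparisons, with bars for limma's 95% interval, filled points for an unadjusted p under 0.05 and dotted lines at 2-fold. Most bars cross 0, the filled points are CAMK2D and PPP2R2C in CoA vs Control, and PHKG1 and PPP1CB have the widest bars.

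The precision sets what could be seen. Over the 27 genes, the median half-width of limma's 95% interval was 0.82 on the log2 scale for CoA vs Control, a factor of 1.76, and 0.88 for the other comparisons, a factor of 1.84. For a typical gene of the set, differences smaller than this were not detectable with these arrays, and a p above the threshold does not show that the groups were alike.

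Both genes of calcium/calmodulin-dependent kinase II, the kinase that carries calcium signals to ion channels and to gene regulation, were bright on every array. The log2 signal of CAMK2D was 12.01, 12.87, 12.09 and 11.92 on the Control arrays, 13.38, 13.20, 12.68 and 13.30 on the CoA arrays, and 12.12, 13.02 and 13.74 on the Corrected arrays. Control replicate 2 lay above CoA replicate 3, the only overlap between Control and CoA, and the Corrected arrays spanned both groups. The difference was 0.92 for CoA vs Control (standard error 0.37, 1.89-fold, unadjusted limma p = 0.029, adjusted p = 0.312, two-sided exact permutation p = 0.057) and in Corrected vs Control it was 0.74 (adjusted p = 0.653, standard error 0.40). All 3 CAMK2D probes, of the same transcript, were higher in CoA, by 0.92 to 1.07 with an unadjusted p under 0.05 each, so that the gene passes 2-fold by another of its probes (1.07, unadjusted p = 0.018). Without Control replicate 2 the brightest probe also passed it (1.13, adjusted p = 0.152), as it did without CoA replicate 3 (1.07), and the lowest value on leaving out an array was 0.82. Corrected vs Control passed 2-fold without Corrected replicate 1 (1.16, adjusted p = 0.339) and was 0.35 without Corrected replicate 4. CAMK2G, the gamma isoform, had a mean log2 signal of 11.90 ± 0.19 in Control, 11.96 ± 0.35 in CoA and 12.33 ± 0.67 in Corrected (SD, with 4, 4 and 3 arrays). Its fold changes were 1.04 and 1.34 for the comparisons with Control, smaller than the spread between arrays (adjusted p = 0.953 and 0.769). The 3 tested CAMK2G probes did not go the same way, with 2 above 0 and 1 below in both comparisons. They gave -0.52 to 0.21 in CoA vs Control and -0.07 to 0.46 in Corrected vs Control, with 0 at an unadjusted p under 0.05.

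**Figure D2:**
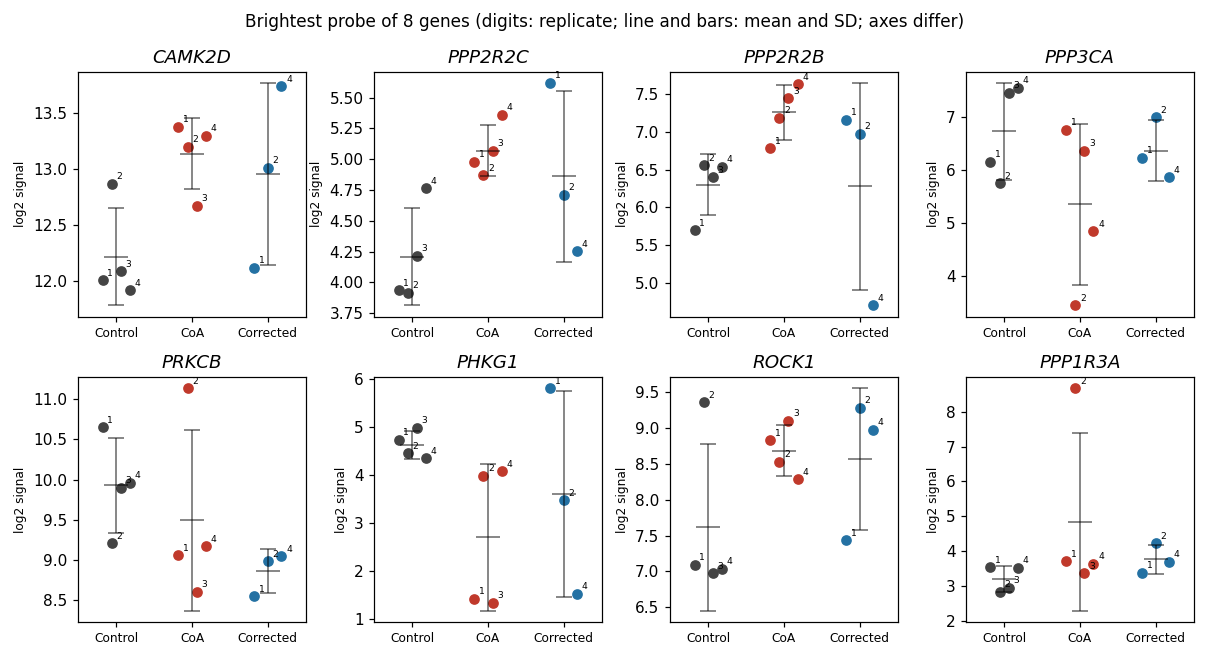
Log2 signal (y axis, different for each panel) of the brightest probe of 8 signalling genes on each Control, CoA and Corrected array (x axis), with the replicate number beside each point and the mean and SD of the group as lines. CAMK2D and PPP2R2C lie higher in CoA than in Control, ROCK1 is high on Control replicate 2, and PPP1R3A is high on CoA replicate 2 (8.67) and between 2.85 and 4.23 on all other arrays shown.

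ROCK1 raises the sensitivity of contraction to calcium. Its log2 signal was 7.09, 9.36, 6.97 and 7.04 on the Control arrays, 8.83, 8.53, 9.10 and 8.28 on the CoA arrays, and 7.43, 9.28 and 8.97 on the Corrected arrays. Control replicate 2 lay above every CoA array and the other 3 Control arrays lay below all of them. The difference was 1.07 for CoA vs Control (standard error 0.57, 2.10-fold, unadjusted limma p = 0.087, adjusted p = 0.407, two-sided exact permutation p = 0.143). Control replicate 2 also had the highest summed level of smooth muscle markers in Control (17.7, others 16.6 to 17.4). Of these markers, CALD1 was highest there, and ACTA2, MYH11 and DES were not. Without Control replicate 2, the difference was 1.65 for CoA (adjusted p = 0.098) and 1.53 for Corrected (adjusted p = 0.281), each past 2-fold with an unadjusted p under 0.05. For Corrected vs Control it was also past 2-fold without Corrected replicate 1 (1.51), whereas it was 0.59 without Corrected replicate 2. CoA vs Control was 0.85 at the least, without Control replicate 3. With all arrays used, Corrected vs Control differed by 0.95 (standard error 0.61, adjusted p = 0.725). All 5 ROCK1 probes had a positive difference in CoA vs Control, of 0.61 to 1.41, with 0 of them at an unadjusted p under 0.05. In Corrected vs Control, 4 of the probes were above 0 and 1 was below, at -0.09 to 0.99, again with 0 at an unadjusted p under 0.05. In whole rings, a change in the amount of RNA per cell and a change in the share of a cell type cannot be told apart.

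Of the kinases that act on the other side of contraction, PRKG1, the target of cyclic GMP made in response to nitric oxide, was detected on all arrays. Its log2 signal was 6.23, 6.99, 5.75 and 5.65 on the Control arrays, 7.85, 5.68, 6.56 and 7.12 on the CoA arrays and 7.19, 7.10 and 6.42 on the Corrected arrays. CoA replicate 2 was the lowest CoA array and lay among the Control arrays, so the groups overlapped. The difference was 0.65 for CoA vs Control (standard error 0.46, adjusted p = 0.528), and Corrected differed from Control by 0.75 (adjusted p = 0.732, standard error 0.50). Without CoA replicate 2, PRKG1 passed 2-fold in CoA vs Control (1.02, adjusted p = 0.376), and without CoA replicate 1 the difference was 0.30. The summed log2 level of smooth muscle markers was 17.4, 17.7, 16.7 and 16.6 on the Control arrays, the same order as PRKG1. On CoA replicate 2 it was 16.6, against 17.5 to 17.8 on the other CoA arrays. On the Corrected arrays it was 17.6, 17.6 and 17.8, highest on replicate 4, where PRKG1 was lowest. Of the single markers in Control, ACTA2 and MYH11 were highest on replicate 1, CALD1 on replicate 2 and DES on replicate 3. Their part in the PRKG1 values was not tested. The second tested PRKG1 probe, detected on fewer arrays, differed by 0.12 and 0.51. PRKACA, the catalytic subunit of the cyclic AMP-dependent kinase, was detected on 1 Control array and on 0 CoA and 0 Corrected arrays, and MYLK2, the myosin light chain kinase of skeletal muscle, was well above background by 1 of its 5 probes on 1 Control array, and otherwise nowhere. Neither gives a fold change.

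Protein kinase C comprises isoforms activated by calcium and diacylglycerol, such as PRKCA and PRKCB, by diacylglycerol alone, such as PRKCE, and by neither, such as PRKCZ. PRKCB, which is also abundant in lymphocytes, had log2 signals of 10.65, 9.21, 9.90 and 9.96 on the Control arrays, 9.06, 11.13, 8.61 and 9.17 on the CoA arrays and 8.55, 8.99 and 9.05 on the Corrected arrays. The Corrected arrays lay below every Control array, and so did 3 of the 4 CoA arrays, whereas CoA replicate 2 was the highest of all arrays. Corrected vs Control differed by -1.07 (standard error 0.55, 2.10-fold, unadjusted limma p = 0.078, adjusted p = 0.643, two-sided exact permutation p = 0.057). The probes of PRKCB belong to 2 RefSeq transcripts. Its 4 tested probes differed from Control by -0.73 to -0.44 in CoA and by -1.14 to -0.42 in Corrected, and 2 dimmer probes of the second transcript were well above background on 3 and 4 Control arrays and on 0 CoA arrays. Within the slide that holds Control replicates 1, 2 and 4 and Corrected replicate 2, the difference was -0.95 (adjusted p = 0.998). CoA vs Control differed by -0.44 (standard error 0.51, adjusted p = 0.712), by -0.98 without CoA replicate 2 (adjusted p = 0.340) and by -0.14 without CoA replicate 3. Leaving out CoA replicate 2 lowered the shared estimate of the spread, and the unchanged difference of -1.07 for Corrected then had an unadjusted p of 0.0097 (adjusted p = 0.333). Without Control replicate 2 it was -1.31 (unadjusted p = 0.047, adjusted p = 0.457), and without Control replicate 1 it was -0.83. The summed log2 level of 6 measured T cell markers was 8.76 to 9.09 on the Control arrays and 6.68 to 7.38 on the Corrected arrays. It was 6.98 to 8.93 on the CoA arrays, 3 of which lay below the lowest Control array. On CoA replicate 2, where PRKCB was highest, that level was 8.47, and on CoA replicate 3, where PRKCB was lowest in CoA, it was 8.93. In CoA vs Control, CD5 (-1.27), CD3E (-2.46) and CD247 (-2.19) were lower, whereas RAG2 (1.21), CD28 (0.37) and CD4 (0.30) were higher. In Corrected vs Control, CD5 differed by -2.41, CD3E by -3.20, CD247 by -2.45, RAG2 by 0.11, CD28 by 0.34 and CD4 by -0.12. CD5 and RAG2 were detected on all 12 arrays, CD3E on 6, and CD247, CD28 and CD4 on 7 each. Their part in the PRKCB values was not tested. PRKCZ, the zeta isoform, had a mean log2 signal of 7.81 ± 1.23 in Control, 8.53 ± 0.63 in CoA and 8.51 ± 0.44 in Corrected (SD), with adjusted p of 0.559 and 0.785 for the comparisons with Control. By their brightest probes, PRKCA was well above background on 2 CoA arrays and PRKCE on 1, and neither on any Control or Corrected array used. Other PRKCE probes were so on 1 Control and 1 Corrected array.

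MAP kinase kinases relay signals from growth factor receptors to the MAP kinases. MAP2K1, which activates the ERK kinases, had log2 signals of 8.43, 7.90, 8.18 and 8.38 on the Control arrays, 7.97, 6.99, 8.10 and 8.54 on the CoA arrays and 8.48, 8.17 and 7.50 on the Corrected arrays. The groups overlapped, and the difference was -0.32 for CoA (adjusted p = 0.690) and -0.17 for Corrected (adjusted p = 0.931) against Control. All 5 MAP2K1 probes were below 0 in both comparisons, at -0.69 to -0.16 and -0.25 to -0.10, with 0 at an unadjusted p under 0.05. MAP2K5, which activates ERK5, differed from Control by -0.04 in CoA and -0.49 in Corrected, and was not well above background on 1 Corrected array used.

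Phosphorylase kinase starts the breakdown of glycogen in response to calcium and cyclic AMP, and all 4 of its measured subunits were tested. The beta subunit, PHKB, had log2 signals of 11.90, 12.84, 12.35 and 12.18 on the Control arrays, 13.01, 13.42, 12.48 and 13.02 on the CoA arrays and 12.47, 12.56 and 13.24 on the Corrected arrays. CoA was higher than Control by 0.66 (standard error 0.30, 1.58-fold, adjusted p = 0.356), with Control replicate 2 above CoA replicate 3. The 4 PHKB probes, all of 1 transcript, did not go the same way. The brighter pair gave 0.50 and 0.66 and the dimmer pair -0.49 and -0.59 for CoA vs Control, with 0 at an unadjusted p under 0.05. On CoA replicate 2 the dimmer pair read 7.19 and 6.28, against 9.79 to 10.04 and 8.91 to 9.24 on the other CoA arrays, while the brightest probe was highest there. PHKA1, the alpha subunit of striated muscle, was 9.57, 9.91, 10.01 and 9.99 on the Control arrays, 10.38, 11.69, 10.10 and 10.10 on the CoA arrays and 9.90, 9.72 and 11.35 on the Corrected arrays. It was higher in CoA by 0.70 (standard error 0.44, adjusted p = 0.476, two-sided exact permutation p = 0.029). Its highest CoA array was replicate 2, where the summed levels of skeletal and cardiac muscle markers were highest too. Without that array the difference was 0.32 (adjusted p = 0.704). The part of these markers was not tested. PHKA2, the alpha subunit of liver, gave -0.48 and -0.40 in the comparisons with Control (adjusted p = 0.649 and 0.866).

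The catalytic gamma subunit of muscle, PHKG1, was the gene of the set with the lowest fold change in CoA. Its log2 signal was 4.74, 4.46, 4.99 and 4.35 on the Control arrays, 1.43, 3.99, 1.35 and 4.09 on the CoA arrays and 5.81, 3.48 and 1.53 on the Corrected arrays. The numbers of arrays on which it was well above background were 4 of 4 for Control, 2 of 4 for CoA and 1 of 3 for Corrected, so the lowest values are near the background. PHKG1 reached the 8 arrays needed for testing only through Corrected replicate 3, the array left out of the fit. All CoA arrays lay below all Control arrays. The difference was -1.92 (standard error 0.88, 3.79-fold, unadjusted limma p = 0.052, adjusted p = 0.356, two-sided exact permutation p = 0.029, the smallest that 4 against 4 allow). It passed 2-fold with an unadjusted p under 0.05 without CoA replicate 2 (-2.35), without CoA replicate 4 (-2.38), and, with the difference unchanged, without Corrected replicate 1 or 4. Without CoA replicate 3 it was -1.47. Corrected vs Control differed by -1.03 (standard error 0.95, adjusted p = 0.801), with Corrected replicate 1 above every Control array, by -2.13 without that array (unadjusted p = 0.033) and by 0.01 without Corrected replicate 4.

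**Figure D3:**
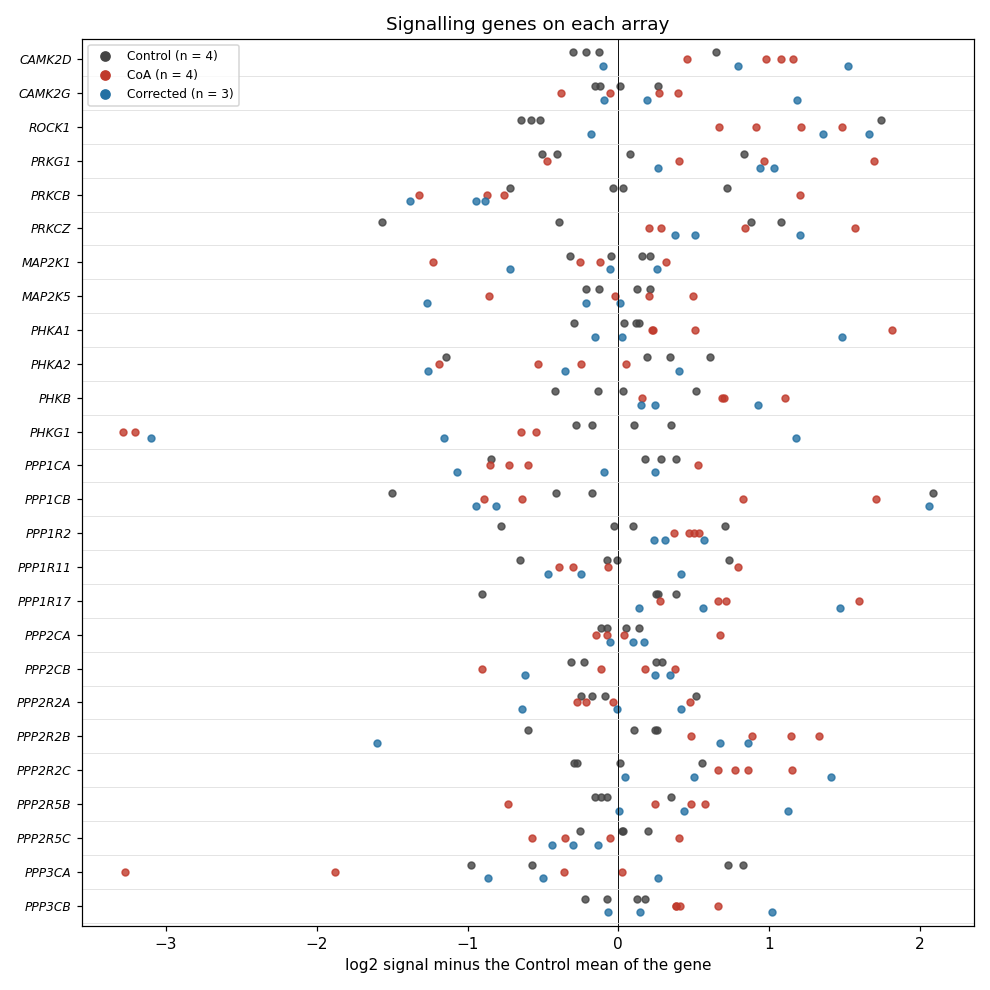
Log2 signal of tested signalling genes (y axis) on every array used, as the difference from the gene's Control mean (x axis), with black points for Control, red for CoA and blue for Corrected. Most genes have overlapping groups within about 1 of the Control mean, PHKG1 and PPP3CA have CoA points near or below -3, and PPP1CB spreads widely in every group.

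Protein phosphatase 1 removes phosphate from myosin, from glycogen enzymes and from many other proteins, guided by regulatory subunits. PPP1CB, the catalytic subunit of the myosin phosphatase, had log2 signals of 7.07, 10.67, 8.17 and 8.41 on the Control arrays, 9.40, 7.69, 10.29 and 7.94 on the CoA arrays and 7.63, 10.64 and 7.77 on the Corrected arrays. In each group 1 or 2 arrays were high, and the SD of 1.51 in Control was the largest among the tested genes. CoA vs Control differed by 0.25 with a 95% interval of -1.73 to 2.23, so the data leave room for a difference of more than 2-fold in either direction (adjusted p = 0.925). The other catalytic subunit, PPP1CA, gave -0.41 and -0.31 in the comparisons with Control (adjusted p = 0.664 and 0.890). PPP1R2 (inhibitor 2) and PPP1R11 (inhibitor 3) differed from Control by -0.10 to 0.47, with adjusted p of 0.481 or more. PPP1R2 had the smallest SD of the set in CoA (0.07, n = 4). PPP1R17, an inhibitor known from Purkinje cells, had a mean log2 signal of 5.38 ± 0.60 in Control, 6.19 ± 0.56 in CoA and 6.10 ± 0.68 in Corrected (SD). The difference between CoA and Control was 0.81 (standard error 0.41, adjusted p = 0.390), with Control replicate 1 well below the other Control arrays. Of the 5 PPP1R17 probes, 1 was tested, and each of the others was detected on 2 arrays or fewer.

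PPP1R3A directs the phosphatase to glycogen in striated muscle. Its log2 signal was 3.55, 2.85, 2.96 and 3.53 on the Control arrays, 3.72, 8.67, 3.38 and 3.65 on the CoA arrays and 3.40, 4.23 and 3.70 on the Corrected arrays. It was high on CoA replicate 2 alone, where the striated muscle gene CKM was also at 13.28, against 3.87 to 4.79 on the other CoA arrays, and RYR2 at 14.01, against 9.57 to 10.40. It was detected on 7 of the 12 arrays and was not tested.

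Protein phosphatase 2A consists of a catalytic, a scaffold and a regulatory subunit. The catalytic subunit PPP2CA had log2 signals of 13.63, 13.72, 13.50 and 13.47 on the Control arrays, 13.62, 14.26, 13.51 and 13.44 on the CoA arrays and 13.76, 13.53 and 13.68 on the Corrected arrays. By this brightest probe it had the smallest SD of the set in Control and in Corrected (0.12 in each), and the 95% interval of CoA vs Control was -0.40 to 0.65. The 6 tested PPP2CA probes did not go the same way in CoA vs Control, with 2 above 0 and 4 below (-0.49 to 0.31). Its dimmest probe had a larger SD, of 0.50 in Control and 0.77 in CoA. PPP2CB, the other catalytic subunit, and the regulatory subunits PPP2R2A, PPP2R5B and PPP2R5C differed from Control by -0.14 to 0.14 in CoA and by -0.29 to 0.52 in Corrected, with an adjusted p above 0.7 throughout.

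PPP2R2C, the gamma form of the B regulatory subunit, had log2 signals of 3.94, 3.91, 4.22 and 4.76 on the Control arrays, 4.98, 4.87, 5.07 and 5.36 on the CoA arrays and 5.62, 4.71 and 4.25 on the Corrected arrays. Every CoA array lay above every Control array by a small margin, and the Corrected arrays overlapped both. The gene was higher in CoA by 0.86 (standard error 0.33, 1.82-fold, unadjusted limma p = 0.023, adjusted p = 0.302, two-sided exact permutation p = 0.029), and passed 2-fold without Control replicate 4 (1.05). The lowest value on leaving out an array was 0.76, without Control replicate 2, and the lowest over all 27 alternatives was 0.28. Of its 2 probes, 1 was tested. In Corrected vs Control it differed by 0.65 (standard error 0.35, adjusted p = 0.655). For PPP2R2B, the beta form, best known from brain, the log2 signals were 5.70, 6.55, 6.40 and 6.54 on the Control arrays, 6.78, 7.18, 7.45 and 7.63 on the CoA arrays and 7.16, 6.97 and 4.70 on the Corrected arrays. Here too CoA lay above Control throughout, by 0.96 (standard error 0.50, 1.95-fold, unadjusted limma p = 0.078, adjusted p = 0.396, two-sided exact permutation p = 0.029). All 5 PPP2R2B probes gave 0.90 to 1.05, of which 2 had an unadjusted p under 0.05 and 1 of these also passed 2-fold. Corrected vs Control differed by -0.02 and CoA vs Corrected by 0.98 (adjusted p = 1.00). The latter passed 2-fold without Corrected replicate 1 (1.42) or replicate 2 (1.33), with Corrected replicate 4 as the lowest of all arrays used. Without Corrected replicate 4, CoA vs Corrected was 0.19 (adjusted p = 0.922) and Corrected vs Control was 0.77 (adjusted p = 1.00).

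Neither tested calcineurin gene had an unadjusted p under 0.05. PPP3CA, the alpha catalytic subunit, had log2 signals of 6.16, 5.75, 7.45 and 7.55 on the Control arrays, 6.75, 3.45, 6.37 and 4.84 on the CoA arrays and 6.23, 6.99 and 5.86 on the Corrected arrays. Of the CoA arrays, replicates 2 and 4 lay below all Control arrays. CoA vs Control differed by -1.37 (standard error 0.70, 2.59-fold, unadjusted limma p = 0.075, adjusted p = 0.391, two-sided exact permutation p = 0.171). It met the criterion without Control replicate 2 (-1.70), CoA replicate 1 (-1.84) or CoA replicate 3 (-1.71), and had an adjusted p of 0.254 to 0.432 in these. Without CoA replicate 2, its lowest array and the one with the highest summed muscle markers, it was -0.74 (adjusted p = 0.579). PPP3CB, the beta catalytic subunit, was higher in CoA on every array than on any Control array, by 0.46 (standard error 0.27, 1.37-fold, unadjusted limma p = 0.116, adjusted p = 0.446, two-sided exact permutation p = 0.029). Corrected vs Control differed by -0.37 for PPP3CA and by 0.36 for PPP3CB (adjusted p = 0.925 and 0.770). Among the genes not tested, PPP3R2, a regulatory subunit of testis, was well above background on 1 CoA array by its brightest probe and on 1 Corrected array by another. PPP2R5D was so on 1 Control array. PPP4C, the catalytic subunit of protein phosphatase 4, was so on 3 Control arrays, 1 Corrected array and 0 CoA arrays. Its log2 signal was 4.84, 3.04, 5.17 and 5.23 on the Control arrays and 3.73, 1.40, 4.45 and 1.99 on the CoA arrays. Control replicate 2 lay below CoA replicates 1 and 3, so the groups overlapped (exact permutation p = 0.114, two-sided). The measured means were 2.89 in CoA and 4.57 in Control. With the lowest signal well above background on each CoA array as its limit, the means differed by 1.72-fold. This value has no error estimate, its Control mean includes an array not well above background, and it is not a firm minimum.

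Where a gene had several tested probes, they served as a check on its fold change. For 17 genes with 2 to 6 tested probes, all probes lay on 1 side of 0 for 11 genes in CoA vs Control and for 10 genes in each of the other comparisons (not given for all named genes). Of the 70 tested probes, 6 had an unadjusted p under 0.05 in CoA vs Control, among them 3 of CAMK2D and 2 of PPP2R2B. In Corrected vs Control 0 had, and in CoA vs Corrected 1 had. The shares of all probes tested were 14.2%, 8.37% and 4.31% in the same order. Probes of 1 gene share the RNA and often neighbouring sequence, and are not replicates.

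**Figure D4:**
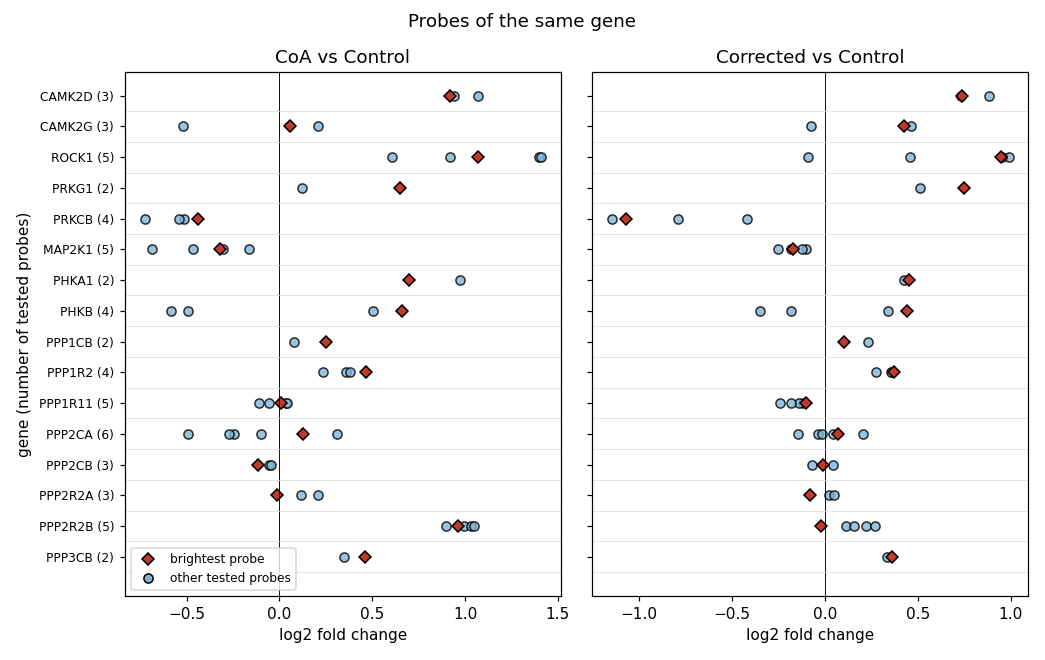
Log2 fold change (x axis) of every tested probe of signalling genes with several tested probes (y axis, with their number), for CoA vs Control and Corrected vs Control, with diamonds for the brightest probe and circles for the others. The probes of CAMK2D, ROCK1 and PPP2R2B lie above 0 in CoA vs Control and those of PRKCB and MAP2K1 below, while those of PHKB fall on both sides.

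Arrays of the same group often differed as much as the groups did. The median SD over the 27 genes was 0.41 in Control, 0.54 in CoA and 0.58 in Corrected on the log2 scale, beside a median absolute difference of 0.47 between CoA and Control. CoA replicate 2 was the highest CoA array for 12 genes and the lowest for 7. Control replicate 2 was the highest Control array for 12 genes and the lowest for 9. A fit was made without CoA replicate 2 and Corrected replicate 4, the arrays on which the dimmer PHKB probes were lowest. The 2-fold criterion was then met by 2 genes in CoA vs Control (PRKG1 and PHKG1), 1 in Corrected vs Control (PRKCB) and 1 in CoA vs Corrected (PHKG1). After adjustment 0 of these remained. Of all 27283 probes, 2062, 954 and 787 met the criterion in the same order.

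Genes that act before or after these enzymes were counted from lists of their pathways, with the 2-fold criterion. In the cyclic nucleotide pathway, 9 of 47 listed genes were tested and 3 met the 2-fold criterion in CoA vs Control. PLN, an inhibitor of the calcium pump whose hold is released by cyclic nucleotide kinases, was higher (1.39, adjusted p = 0.262). ADCY5, which makes cyclic AMP, and PTGER3, a prostaglandin receptor that lowers it, were lower (-1.38 and -2.33, adjusted p = 0.269 and 0.286). PTGER3 was at 11.84, 11.63, 11.99 and 12.01 on the Control arrays and between 6.997 and 11.79 on the CoA arrays. CoA replicate 1 was the lowest and CoA replicate 3 the highest of the CoA arrays for PTGER3. The same held for the summed adipocyte markers (8.95 and 11.999), whose part was not tested. PLN also belongs to the cardiac muscle markers and was highest on CoA replicate 2 (13.41, others of CoA 12.13 to 12.23). Of 23 tested contraction genes, CACNB2, a calcium channel subunit, was higher in CoA than in Control (1.34, adjusted p = 0.322) and 0 were lower. EDNRA, an endothelin receptor, and TPM2, a tropomyosin, were higher in Corrected (1.02 and 1.30, adjusted p = 0.570 and 0.569), and again 0 were lower. ATP2A1, a calcium pump of skeletal muscle, was lower in CoA than in Corrected (-2.62, adjusted p = 1.00). In the mitogen pathway, 3 of 7 tested genes were higher in CoA, namely the growth factor HGF (1.65), the cytokine IL1A (2.20) and the transcription factor JUN (1.39), with adjusted p up to 0.321. HGF and FOS were higher in Corrected (1.72 and 2.08, adjusted p = 0.352 and 0.531). Of 6 tested glycogen genes, PGM1, which links glycogen to glucose use, was lower in CoA (-1.26, adjusted p = 0.348), and 0 met the criterion in the other comparisons. All of these calls rest on unadjusted p-values, and 0 genes of the lists passed the adjustment over all probes. The shares in CoA vs Control, 3 of 9, 1 of 23, 3 of 7 and 1 of 6, stand beside the 10.8% of named genes given above and are counts of few genes. The median log2 fold change of the tested genes in CoA vs Control was -0.03 for the cyclic nucleotide list, 0.47 for contraction (20 of 23 above 0), 1.35 for the mitogen list (6 of 7 above 0) and -0.15 for glycogen, beside 0.08 over the named genes. The summed log2 level of smooth muscle markers was 16.6 to 17.7 on the Control arrays, 16.6 to 17.8 on the CoA arrays and 17.6 to 17.8 on the Corrected arrays. That of 3 macrophage markers was 10.7 to 12.7, 12.7 to 14.4 and 12.4 to 13.2 in the same order. In CoA and Corrected against Control, SPP1 differed by 2.86 and 1.95, CD14 by 0.36 and 0.53, and MSR1 by 0.79 and -0.30. The part of smooth muscle or macrophage markers in the values of these lists was not tested.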

How the data were processed

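The values deposited by the authors are scanner output of Agilent Feature Extraction 11.0.1.1, and the processed signal used here is an intensity with the background subtracted and not normalized between arrays. The deposited intensities were put on the log2 scale here and quantile normalized over 12 arrays. The flags come from the same deposited output. Outlier spots were left out, spots of a probe were averaged, and detection of a probe required most of its spots to be flagged positive and significant and well above background. The 27283 probes detected on at least 8 of 12 arrays entered 1 limma model (version 3.58.1, R 4.3.3; statmod 1.5.0 for random blocks) over 11 arrays, tested on simulated data first. All tests were two-sided. A fold change above 2, the lowest of the authors' fold bins, was used together with p below 0.05. The authors name this p threshold without saying whether p was adjusted, and here it was applied before adjustment, beside Benjamini-Hochberg adjustment. An exact permutation test over arrays, whose smallest p is 0.029, was added for single genes. The brightest probe, by its mean over arrays, stood for each gene. Python 3.11.15 (numpy 2.4.6, pandas 2.3.3, matplotlib 3.10.9) was used for tables and plots.

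The genes, lists and tests were chosen with earlier results of these data known. Values on each array were given for genes with an unadjusted p under 0.05, the brightest gene of each family, contraction genes and PRKCB. PHKA1, PHKG1, PPP1R3A, PPP2R2B, PPP3CA and other genes were added after their values were seen. The replicate numbers did not pair the arrays, since correlations of same-numbered arrays, as deviations from their group means over all probes tested, were -0.44 to 0.45. Nothing in the sources used here says that arrays shared an animal. Alternatives covered the arrays used, array weights, normalization, background correction, detection, probe choice, blocks and leaving out arrays. Counts cover all tested genes, and the values of 1 gene are not reported here.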

Additional observations from a re-analysis of the deposited data

Results flagged for a closer look

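For each signalling gene, the highest or lowest of the 4 Control and of the 4 CoA arrays was compared with its nearest neighbour, as the gap divided by the range of the group. In 8 of 70 such groups of 4 arrays the share was above the 95% limit of Dixon's test, where chance gives about 1 in 20. Control replicate 2 stood highest for ROCK1 (0.949) and lowest for PPP1CA (0.832) and PRKCE (0.885). Control replicate 1 stood lowest for PPP1R17 (0.897) and highest for PRKCA (0.947), and Control replicate 4 highest for PPP2R5B (0.838). CoA replicate 2 stood highest for PPP1R3A (0.936) and PPP3CB (0.891), though for PPP3CB the whole range was 0.28 on the log2 scale. The brightest probes of PRKCA and PRKCE were not well above background on any Control array, so their order there is that of background values.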

How the results depend on the processing

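With 4 arrays or fewer per group the counts moved by a few genes with most choices, and the cause was not tested. The signalling genes past 2-fold with an unadjusted p under 0.05 numbered 0 for CoA vs Control. They numbered 5 with limma array weights over 12 or over 11 arrays and 4 with 75th percentile scaling. With no detection filter they numbered 3 (all of them dim genes, PPP4C, PPP3R2 and PRKCA). The positive and significant flag alone gave 1, only the groups compared 1 and slide as a random block 2. Of all 27283 probes, 2404 met the criterion in the main fit, 5210 and 5194 with array weights and 2751 with 75th percentile scaling. It was met by 3733 of 43603 with no filter, 3478 of 35393 with the flag alone, 2492 with only the groups compared and 3220 with the random block. For Corrected vs Control, 0 became 1 with all 12 arrays, 3 with array weights over 12 arrays, 2 with array weights over 11 and 1 with only the groups compared. Among all probes, 1474 became 2854, 2661, 2288 and 1516 in the same order. For CoA vs Corrected, 1 became 2 with all 12 arrays, 2 with no detection filter and 2 with slide as a random block. It became 0 with 75th percentile scaling, with normexp and with the mean of all probes of a gene. Among all probes, 754 became 1162, 1463 (of 43603), 1207, 686, 129 and 753 in the same order. Leaving out each array in turn gave 0 to 3, 0 to 3 and 0 to 2 genes in the 3 comparisons. Of all 27283 probes it gave 1545 to 3536, 765 to 2400 and 641 to 1778. Groups that did not overlap numbered 5, 1 and 1, against 10.2%, 8.86% and 4.2% of all probes (not given for other settings). They numbered 2 with detection on all 12 arrays for CoA vs Control, 2 with no filter and 0 with the mean of probes for Corrected vs Control, and 0 with 75th percentile scaling and with the mean of probes for CoA vs Corrected. Leaving out arrays gave 5 to 11 (the most without Control replicate 2, 8 without CoA replicate 3), 1 to 7 (the most without Control replicate 2) and 1 to 3, and fewer arrays can only remove overlap. A pair of settings was chosen after seeing the data. Without CoA replicate 2 and Corrected replicate 4, the counts past 2-fold were 2, 1 and 1 (2062, 954 and 787 of all probes). Those not overlapping were 6, 4 and 4. With array weights and Control replicates 3 and 4 as 1 sample, the counts past 2-fold were 4, 1 and 1 (3148, 1006 and 1299 of all probes).

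Adjustment was passed in 1 kind of setting. With array weights over 11 arrays, 14 signalling genes, like 11130 of all probes, had an adjusted p under 0.05 for CoA vs Control (smallest 0.0017). Control replicates 3 and 4, whose values lay close together, then carried weights of 4.76 and 5.68 and CoA replicate 2 one of 0.15. With this pair as 1 sample, 0 signalling genes passed (smallest 0.112). Scaling to the 75th percentile shifted all probes upward, with a median of 0.22 in place of 0.06 in CoA vs Control and of 0.13 in place of 0.03 in Corrected vs Control. It added PHKB, CAMK2D, PPP2R2C and PPP2R2B, at 1.02 to 1.33. The replicate block gave 0 genes past 2-fold for CoA vs Corrected in place of 1 and changed no other of these counts. In CoA vs Control, CAMK2D and PPP2R2C kept their direction in all 28 and 27 alternatives that gave a value. No tested gene named here was reversed in the comparison in which it had a p under 0.05 or groups not overlapping. In Corrected vs Control, PHKG1 kept its direction in 26 of 28 alternatives, PHKA1 in 26 of 29 and PPP2R2B in 15 of 28. CAMK2D, PPP2R2C and PPP3CB kept theirs in all. Dim genes such as PHKG1 and PPP4C were limited by the background.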
